A study of Homo sapiens with 6 samples.

Results

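Long intergenic noncoding RNAs (lincRNAs) were examined in AsPC-1 cells, a line established from human pancreatic cancer, after lentiviral overexpression of MMP28, a secreted matrix metalloproteinase. All rows of the deposited gene table with the biotype lincRNA and at least 300 counts summed over the 6 libraries were selected on that sum, which gave 181 of 7629 lincRNA genes and of 58735 genes in all. The Vector group (n = 3) had received an empty lentivirus, and the OE-MMP28 group (n = 3) had received a lentivirus that carried MMP28 cDNA. Per the study's methods the vector also carried GFP and puromycin resistance, and the cells were selected with puromycin. Whether the cells were kept as a pool or as clones, and whether the 3 libraries of a group came from separate cultures, was not given in the sources used here, so p-values measure only the spread between these samples, which may be technical. The rule used abundance over all 6 libraries together, so the difference between the groups did not choose the genes, except as described for 26 of them below.

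LincRNA genes lie between protein-coding genes, have promoters of their own and mostly give capped, spliced and polyadenylated transcripts that encode no protein. They tend to be less abundant and more restricted to a tissue than mRNAs. Some act in the nucleus as scaffolds, some bind proteins or RNAs in the cytoplasm, and others serve as host transcripts from which microRNAs or small nucleolar RNAs (snoRNAs) are cut. Many start next to a coding gene and run away from it, so that both share a stretch of promoter, and for many numbered or clone-named lincRNAs no function is established.

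Library totals lay between 13633249 and 16691458 counts, so that a count of 0 would have allowed up to 0.180 to 0.220 CPM (counts scaled to library size), a limit that covers counting error only. None of the 181 lincRNAs had a 0 in any library. The overexpressed gene checked the labels: MMP28 had 226, 352 and 355 counts in the Vector libraries and 591, 628 and 725 in the OE-MMP28 libraries. All 6 markers of ductal epithelium were measured and summed to between 2575 and 3518 FPKM (fragments per gene length and library size) in Vector and between 3566 and 4364 in OE-MMP28, where KRT19 and MUC1 passed the test as higher. The 5 macrophage and 3 endothelial markers had at most 30 counts in a library, and of the 5 fibroblast markers only LUM exceeded 11, with 1499 to 2707. CDH5 and CD163 were near 0 in every library. PECAM1 was called higher (0, 4 and 4 against 13, 21 and 30 counts), and the summed endothelial markers lay between 0.0441 and 0.170 FPKM in Vector and between 0.179 and 0.293 in OE-MMP28. The part of these markers in the results below was not tested.

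Abundance was concentrated in a few genes. The 181 lincRNAs held 83.9% of all lincRNA counts, with sums from 307 to 119625 and a median of 645, while 4673 lincRNA genes had no count in any library. Just inside the limit lay CASC9 with 307 counts, AC010969.2 with 308 and PSMG3-AS1 with 308, and just outside it LINC01003 with 299, AC092368.3 with 297 and AC019069.1 with 292. Per length, AC105460.1 had the highest mean level over all libraries (125 FPKM), followed by NORAD (115 FPKM), a cytoplasmic RNA that binds PUMILIO proteins. Next were MALAT1 at 64.3 FPKM, NEAT1 at 57.0, SNHG8 at 36.7, SNHG19 at 31.7, AC005392.2 at 20.02 and AP005233.2 at 18.98. Of these 8 genes 1 passed the test between the groups: AC105460.1 fell from 148 ± 37.2 to 102 ± 14.02 FPKM (SD, n = 3), although its libraries overlapped, with 1336, 1940 and 2032 counts in Vector and 1524, 1159 and 1439 in OE-MMP28. Its log2 fold change was −0.52 ± 0.18 (SE, edgeR adjusted p = 0.0388), and it kept its call in 2 of 6 fits that left out 1 library (highest adjusted p = 0.191, without OE-MMP28 replicate 2). NORAD had 125 ± 5.38 FPKM in Vector and 106 ± 19.2 in OE-MMP28 (adjusted p = 0.290), and 35.3% of its 50-base stretches occur in other annotated genes, so its counts are uncertain.

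MALAT1 and NEAT1 are kept in the nucleus, MALAT1 at nuclear speckles and NEAT1 as the scaffold around which paraspeckles form. NEAT1 had 17638, 19344 and 16916 counts in Vector and 19222, 20936 and 25569 in OE-MMP28, which gave 54.7 ± 7.12 and 59.4 ± 6.79 FPKM. Its groups overlapped, and the log2 fold change of 0.13 ± 0.15 did not pass the test (edgeR adjusted p = 0.566). MALAT1 had 7851, 10268 and 8161 counts in Vector and 9383, 6867 and 9342 in OE-MMP28, also with overlap (log2 fold change −0.20 ± 0.17, edgeR adjusted p = 0.419). Both lie in a region of chromosome 11 where coding genes rose, with a local median of 0.32 (the median log2 fold change of tested coding genes within 10 Mb), and relative to it MALAT1 was called lower (−0.52, adjusted p = 0.0392) and NEAT1 was not called (−0.19). Of the genes for the core paraspeckle proteins, NONO (log2 fold change 0.18, edgeR adjusted p = 0.366), SFPQ (0.20, adjusted p = 0.334) and PSPC1 (0.04, adjusted p = 0.893) did not pass the test.

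The share of library counts held by the 181 lincRNAs was 0.452%, 0.529% and 0.490% in Vector and 0.441%, 0.431% and 0.459% in OE-MMP28, with 1 Vector library inside the OE-MMP28 range. The means of 0.490% ± 0.0383 and 0.444% ± 0.0140 (SD, n = 3) did not pass a two-sided exact permutation test (p = 0.2, where 0.1 is the smallest p that 3 against 3 can give). Without MALAT1 and NEAT1 the shares were 0.304% ± 0.0194 and 0.256% ± 0.00742, and here every Vector library lay above every OE-MMP28 library (exact permutation p = 0.1, the smallest possible). Mitochondrial genes took 13.7% ± 1.62 of the counts in Vector and 10.8% ± 1.71 in OE-MMP28. Taken as a share of the nuclear counts alone, the 181 lincRNAs held 0.569% ± 0.0530 and 0.498% ± 0.0242 (exact permutation p = 0.2).

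**Figure D1:**
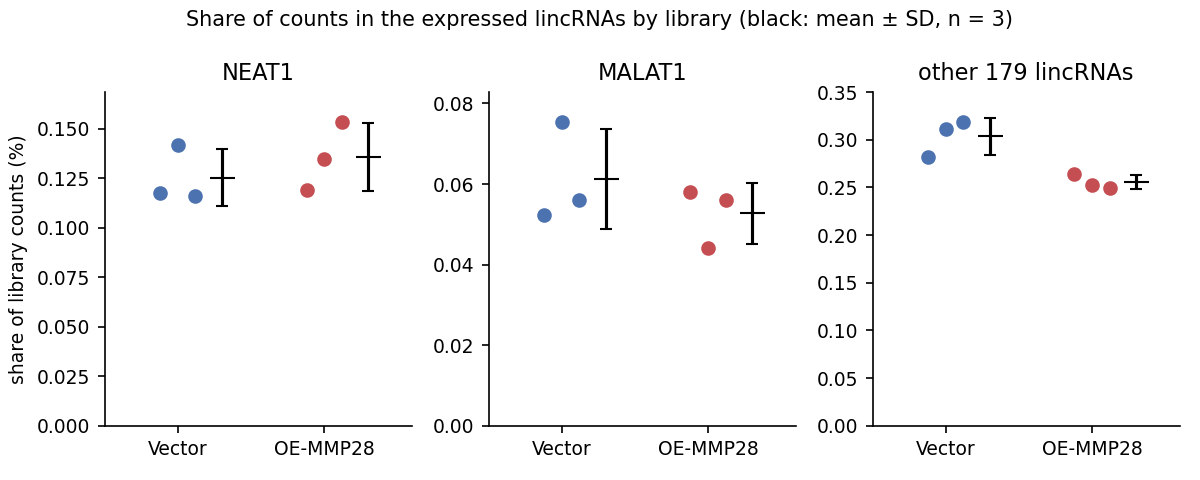
Share of library counts (%, vertical axes starting at 0) for NEAT1, MALAT1 and the other 179 lincRNAs, with 1 point per library and the mean ± SD of 3 libraries in black. NEAT1 and MALAT1 overlap between the groups, whereas the 3 Vector libraries lie above the 3 OE-MMP28 libraries for the rest, at 0.304% against 0.256% on average.

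Of the 181 lincRNAs, 34 were lower and 14 higher in OE-MMP28 cells at an adjusted p under 0.05 in edgeR's quasi-likelihood test, which was fitted on 15319 genes and adjusted over all of them. Thus 18.8% fell and 7.73% rose, beside 11.6% of all genes tested that fell and 11.7% that rose. Among 10809 protein-coding genes with the same summed count of at least 300, 12.02% fell and 14.17% rose. With a log2 fold change over 1 in size as well, 12 lincRNAs fell and 6 rose (6.63% and 3.31%, against 4.32% and 3.06% of all genes). Of these, 4 falls and 5 rises belong to 26 lincRNAs whose summed count reached the limit only through the group where they were high, and among the other 155 lincRNAs 8 fell and 1, LINC01588, rose by that much. The log2 fold change was negative for 111 lincRNAs and positive for 70, with a median of −0.11, whereas the median was 0.01 over all genes tested and 0.05 over those coding genes. These shares describe the set and no test was made between them.

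The groups did not overlap for 41 lincRNAs on the lower side and for 26 on the higher side, that is 22.7% and 14.4%, against 18.6% and 19.5% of all genes. Without any fold limit, 27 of those other 155 lincRNAs fell and 8 rose. The 26 passed the limit only through their high group, so their 7 falls and 6 rises are descriptions. The falls are those of AL392172.1, CASC9, AC005332.5, LINC01224, C2orf48, AF117829.1 and TRAM2-AS1, and the rises those of LINC01322, LINC02331, AC022784.1, LINC00543, LINC01843 and AC016205.1. The counts depended on single libraries: without OE-MMP28 replicate 2 there were 15 lower and 8 higher, and without Vector replicate 3 there were 20 lower and 11 higher. Of the 48 lincRNAs called, 20 kept their call whichever library was left out, 13 of them lower and 7 higher. By summed count, 15 of the 60 most abundant lincRNAs fell and 5 rose. Of the 61 in the middle 12 fell and 4 rose, and of the 60 lowest 7 fell and 5 rose. Of all genes tested 11.6% fell and 11.7% rose, and these shares were not split by such levels of summed count.

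Sense and antisense reads could not be told apart, because the library kit named in the labels does not mark strand and the setting of the counting is not given in the sources used here. Exons of 107 lincRNAs overlapped no exon of another gene, and 17 of these fell and 9 rose (15.9% and 8.41%, against 11.6% and 11.7% of all genes). Exons of 53 overlapped a gene on the opposite strand and those of 33 a gene on the same strand. Coordinates below are on GRCh38 with the GENCODE release 29 annotation, which has the same identifiers, positions and biotypes as the deposited table for all 58735 genes.

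The largest fall was that of LINC01833 (ENSG00000259439, chr2:44921077-44939199, minus strand). Its nearest tested coding gene, SIX2, encodes a homeobox transcription factor of development. LINC01833 had 216, 284 and 265 counts in Vector and 57, 63 and 66 in OE-MMP28, and the groups lay far apart. The level went from 4.57 ± 0.891 to 0.990 ± 0.0517 FPKM, a 4.57-fold fall (log2 fold change −2.19 ± 0.22, edgeR adjusted p = 6.44e-07). SIX2, 65962 bases away, fell alongside it with a log2 fold change of −1.93. LINC01833 kept its call in all 14 alternative fits.

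LINC00342 (chr2:95807118-95816215, minus strand), of no established function, had 541, 1029 and 864 counts in Vector and 309, 303 and 325 in OE-MMP28. The 3 OE-MMP28 libraries were close together, while Vector replicate 1 was the lowest of its group and still above them. Its log2 fold change was −1.54 ± 0.21 (edgeR adjusted p = 3.55e-05), and that of ANKRD36C, 20704 bases away, was −1.34. Since 28.4% of its 50-base stretches also occur in AC092683.1, reads from both may be mixed. On the same chromosome LINC01116 (chr2:176629589-176637931, minus strand), which lies near the HOXD genes, had 301, 337 and 418 counts against 180, 165 and 180, with no overlap. It fell 2.23-fold, from 13.6 ± 2.45 to 6.07 ± 0.280 FPKM (log2 fold change −1.16 ± 0.19, edgeR adjusted p = 0.000196), and 12.5% of its exon bases lie opposite LINC01117. The nearest tested coding gene, MTX2, did not pass the test (log2 fold change −0.08).

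AP003469.4 (chr8:101166805-101169629, minus strand), a transcript of 1 exon, had 107, 146 and 159 counts in Vector and 70, 45 and 58 in OE-MMP28. No OE-MMP28 library reached the lowest Vector library, and the fall was 2.65-fold (log2 fold change −1.40 ± 0.25, edgeR adjusted p = 0.000585).

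AC012360.3 (chr2:105334027-105337475, minus strand) starts 116 bases from C2orf49 and runs the other way. It had 125, 92 and 93 counts against 44, 60 and 53 (log2 fold change −1.12 ± 0.25, edgeR adjusted p = 0.00314), and C2orf49 also fell (log2 fold change −0.67). The call for AC012360.3 was lost once the median change of its surroundings was taken out (adjusted p = 0.0915).

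ELFN1-AS1 (ENSG00000236081, chr7:1738630-1742291, minus strand) lies inside ELFN1, which encodes a synaptic adhesion protein, and is read from the other strand. It had 183, 148 and 197 counts in Vector and 67, 75 and 133 in OE-MMP28, so OE-MMP28 replicate 3 was the nearest to Vector and still below it. The level went from 12.2 ± 1.23 to 5.69 ± 2.01 FPKM (log2 fold change −1.09 ± 0.24, edgeR adjusted p = 0.00292), and ELFN1 itself fell by 1.16 on the log2 scale. ELFN1-AS1 kept its call in all 14 alternative fits. Its promoter (RefSeq, GRCh38.p14, chr7:1742261-1742560, minus strand, 250 bases before the start to 50 after) is shown because both genes of the pair fell, with the letters CCAAT in capitals, found on either strand in 35.7% of 27303 promoters of this length.
ELFN1-AS1: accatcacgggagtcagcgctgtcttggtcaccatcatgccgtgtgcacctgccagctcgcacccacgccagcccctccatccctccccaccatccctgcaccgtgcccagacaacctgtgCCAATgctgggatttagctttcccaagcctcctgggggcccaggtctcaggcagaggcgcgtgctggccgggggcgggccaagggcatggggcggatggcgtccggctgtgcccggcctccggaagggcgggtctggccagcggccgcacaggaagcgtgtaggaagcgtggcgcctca

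Other falls among the 12 largest without overlap were those of AC005332.5, LINC01224, ITGB1-DT, AL365203.2, C2orf48 and AC083843.2. AC005332.5 on chromosome 17 had 52, 77 and 83 counts in Vector and 27, 31 and 54 in OE-MMP28 (log2 fold change −1.08 ± 0.32, edgeR adjusted p = 0.0181). Its groups were separated after scaling but overlapped in raw counts, and 35.9% of its exon bases lie opposite the pseudogenes LRRC37A16P and SH3GL1P3. LINC01224 on chromosome 19 had 74, 67 and 85 counts against 36, 50 and 35 (log2 fold change −1.04 ± 0.28, edgeR adjusted p = 0.0104). C2orf48 had 53, 103 and 88 against 49, 48 and 46 (log2 fold change −0.93 ± 0.29, edgeR adjusted p = 0.0264), so Vector replicate 1 was close to the OE-MMP28 libraries. AC083843.2 on chromosome 8 was more abundant, with 353, 303 and 344 counts against 232, 167 and 188 (log2 fold change −0.91 ± 0.18, edgeR adjusted p = 0.00127). Calls were lost when some single library was left out for AC005332.5 (highest adjusted p = 0.0840, without OE-MMP28 replicate 2), LINC01224 (0.0507, without Vector replicate 3), AL365203.2 (0.104, without OE-MMP28 replicate 2) and C2orf48 (0.139, without Vector replicate 2).

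ITGB1-DT starts near the gene of integrin beta 1, a main receptor subunit for matrix proteins, and had 85, 115 and 114 counts in Vector and 63, 59 and 50 in OE-MMP28. It fell 2.03-fold (log2 fold change −1.02 ± 0.25, edgeR adjusted p = 0.00662), while ITGB1 did not pass the test (log2 fold change −0.14), and with the surroundings taken out its own call was lost (adjusted p = 0.204). AL365203.2, also on chromosome 10, had 102, 111 and 112 counts against 67, 36 and 83 (log2 fold change −0.96 ± 0.27, edgeR adjusted p = 0.0145). Neither gene overlapped between the groups.

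The largest rise was that of LINC01322 (ENSG00000244128, chr3:165206960-165655423, plus strand), a spliced lincRNA of no established function. It had 41, 33 and 49 counts in Vector and 152, 185 and 162 in OE-MMP28, with a wide gap between the groups. The level went from 1.51 ± 0.245 to 5.54 ± 0.636 FPKM, a 3.67-fold rise (log2 fold change 1.88 ± 0.24, edgeR adjusted p = 1.58e-05). It is one of the 26 lincRNAs that reached the count limit only through their high group, so its place among the rises is a description. The nearest tested coding gene, PDCD10, lies 2027875 bases away and also rose (log2 fold change 0.62). The RefSeq promoter (GRCh38.p14, chr3:165206698-165206997, plus strand) belongs to a start 12 bases from that of GENCODE. It is shown because this gene rose most, with a match to the letters TATAAA in capitals, which lies further upstream of the start than a TATA box usually does. These letters were found on either strand in 12% of all promoters of this length and in 10 of the 64 lincRNAs with a promoter in the table.
LINC01322: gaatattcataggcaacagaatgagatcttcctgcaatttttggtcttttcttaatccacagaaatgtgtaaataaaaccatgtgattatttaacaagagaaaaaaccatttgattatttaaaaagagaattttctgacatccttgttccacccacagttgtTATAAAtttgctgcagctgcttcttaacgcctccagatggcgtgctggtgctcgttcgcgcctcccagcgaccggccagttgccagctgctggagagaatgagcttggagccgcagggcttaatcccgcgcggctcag

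A pair of lincRNAs on chromosome 14 rose together with their surroundings. LINC02331, 98854 bases from BMP4, a secreted growth factor of the TGF-beta family, had 31, 18 and 46 counts in Vector and 101, 126 and 71 in OE-MMP28. It rose 2.86-fold (log2 fold change 1.52 ± 0.32, edgeR adjusted p = 0.00214), and BMP4 rose by a log2 fold change of 0.52. LINC01588 had 46, 43 and 70 counts against 148, 114 and 128 (log2 fold change 1.15 ± 0.25, edgeR adjusted p = 0.00264). Neither gene overlapped between the groups, and both lost their calls when the local median of 0.60 was taken out (adjusted p = 0.0578 and 0.15).

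AC022784.1 (chr8:9151695-9425524, plus strand) rose against its neighbourhood. It starts 121 bases from PPP1R3B, which encodes a subunit that brings a phosphatase to glycogen, and both run in opposite directions. The lincRNA had 47, 50 and 21 counts in Vector and 102, 109 and 124 in OE-MMP28, with no overlap (log2 fold change 1.35 ± 0.30, edgeR adjusted p = 0.00266), whereas PPP1R3B fell (log2 fold change −0.50, adjusted p = 0.0276). Relative to the local median of −0.38 its change was 1.73 (adjusted p = 0.000481). AC022784.1 reached the count limit only through its high group, as did LINC02331 above and LINC01843 below, so these rises are descriptions.

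LINC01843 on chromosome 5 had 48, 42 and 39 counts against 103, 99 and 108, and replicates lay close together in both groups (log2 fold change 1.12 ± 0.25, edgeR adjusted p = 0.00297). Its neighbour JADE2, which encodes a chromatin protein, had a log2 fold change of −0.04 and did not pass the test.

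LINC00460 (ENSG00000233532, chr13:106374477-106384315, plus strand) has been linked to several carcinomas and lies 105416 bases from EFNB2, the gene of the membrane-bound ligand ephrin-B2. It had 108, 86 and 100 counts in Vector and 206, 212 and 204 in OE-MMP28, so replicates lay close together and the groups did not overlap. The level rose from 1.59 ± 0.0834 to 3.03 ± 0.152 FPKM (log2 fold change 0.94 ± 0.20, edgeR adjusted p = 0.00197), with calls in all 14 alternative fits. EFNB2 did not pass the test (log2 fold change 0.14). The RefSeq promoter (GRCh38.p14, chr13:106376314-106376613, plus strand) belongs to a start 2087 bases from that of GENCODE. It is shown because it holds a pair of TGACTCA motifs, the letters of the AP-1 element, found on either strand in 4.92% of promoters, and the letters CCAAT on the other strand, read here as ATTGG (both in capitals).
LINC00460: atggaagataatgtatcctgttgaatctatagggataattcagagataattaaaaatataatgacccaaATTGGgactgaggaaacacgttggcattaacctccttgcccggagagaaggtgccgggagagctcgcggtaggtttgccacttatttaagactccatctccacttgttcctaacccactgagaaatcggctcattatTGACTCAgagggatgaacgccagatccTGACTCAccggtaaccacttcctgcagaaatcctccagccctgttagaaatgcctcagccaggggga

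TGACTCA was present in promoters of 5 of the 64 lincRNAs, 1 of 8 called higher and 1 of 9 called lower, and CCAAT in 31 of 64, 4 of 8 called higher and 5 of 9 called lower. These matches are descriptions of letters, and 17 of the 48 lincRNAs called had a promoter in the table. Some RefSeq starts lie far from those of GENCODE, such as 28215 bases for MIR4435-2HG and 11969 for LINC02188. CYTOR and MIR4435-2HG, both among the 5 with TGACTCA, share part of their sequence.

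The remaining rises among the 12 largest were smaller. AC016205.1 had 31, 33 and 48 counts in Vector and 90, 60 and 75 in OE-MMP28 (log2 fold change 0.86 ± 0.29, edgeR adjusted p = 0.0379). LINC01547, which starts 97 bases from FAM207A, had 53, 55 and 78 counts against 102, 122 and 134 (log2 fold change 0.80 ± 0.25, edgeR adjusted p = 0.0231), and FAM207A rose likewise (log2 fold change 0.73). LINC01915 had 98, 127 and 153 counts against 249, 218 and 220, again without overlap (log2 fold change 0.71 ± 0.21, edgeR adjusted p = 0.0185). AC026401.3, which lies within NDE1, had 148, 135 and 129 counts against 258, 211 and 268 (log2 fold change 0.69 ± 0.19, edgeR adjusted p = 0.0120). LINC02188 had 144, 124 and 139 counts against 241, 221 and 218 (log2 fold change 0.60 ± 0.19, edgeR adjusted p = 0.0255), in a region whose local median was −0.32. Each of these 5 lost its call in some fit that left out 1 library, with highest adjusted p-values of 0.143 for AC016205.1 (without OE-MMP28 replicate 1), 0.0986 for LINC01547 (without OE-MMP28 replicate 2), 0.0732 for LINC01915 (without Vector replicate 1), 0.0654 for AC026401.3 (without Vector replicate 3) and 0.0982 for LINC02188 (without OE-MMP28 replicate 2).

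**Figure D2:**
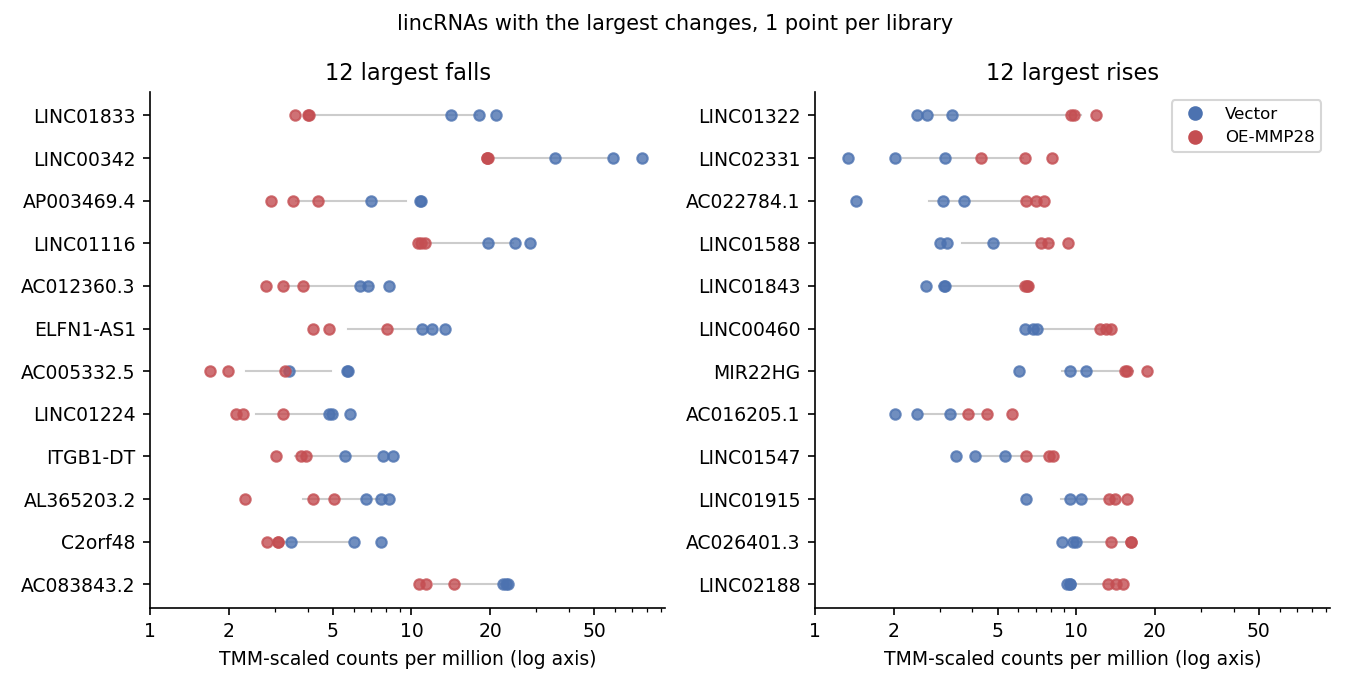
TMM-scaled CPM (log axis) of the 12 lincRNAs with the largest fall and the 12 with the largest rise among those called without overlap, with 1 point per library, Vector in blue and OE-MMP28 in red, and a grey line between the group means. LINC01833 goes from a mean of 17.8 to 3.88 and LINC01322 from 2.82 to 10.4, while AC005332.5 and C2orf48 have Vector libraries next to the OE-MMP28 libraries.

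A smaller number of calls came from lincRNAs whose groups overlapped. AL392172.1 had 36, 175 and 70 counts in Vector and 44, 31 and 44 in OE-MMP28 (log2 fold change −1.42 ± 0.42, edgeR adjusted p = 0.0182), and CASC9 had 30, 128 and 48 against 35, 24 and 42 (log2 fold change −1.21 ± 0.43, edgeR adjusted p = 0.0447). In both, Vector replicate 2 was far above all other libraries, and without it the adjusted p was 0.318 and 0.607. LINC00543 had 29, 59 and 27 counts against 61, 109 and 130 (log2 fold change 1.21 ± 0.34, edgeR adjusted p = 0.0137), with Vector replicate 2 almost level with OE-MMP28 replicate 1 (adjusted p = 0.0910 without OE-MMP28 replicate 3). LINC01239, MANCR and LINCR-0001 were also called lower with overlap, with log2 fold changes of −1.08, −0.92 and −0.69.

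The further called lincRNAs had changes of less than a log2 unit. Falls without overlap were those of LINC02035 (−0.89), LINC00997 (−0.88), LINC01963 (−0.87), AC073335.2 (−0.84), AF117829.1 (−0.84), AC104964.3 (−0.82), TRAM2-AS1 (−0.79), AC019117.1 (−0.75) and AC018645.2 (−0.72), each as a log2 fold change. AL365181.2 (−0.67), AC015813.1 (−0.66), LINC00294 (−0.55) and AL161431.1 (−0.54) followed. LINC00997 and AC018645.2 are neighbours on chromosome 7 (chr7:32760279-32762924 and chr7:32758882-32759353, both plus strand). The RefSeq start of LINC00997, at 32758286, lies 1993 bases from that of GENCODE and before AC018645.2. Both falls may therefore come from the same transcript, which was not tested. LINC02035 fell in a region where coding genes rose, with a local median of 0.31, and its change relative to that median was −1.20 (edgeR adjusted p = 0.00112). LINC01184 rose by 0.54 and starts 594 bases from SLC12A2, the gene of a sodium, potassium and chloride cotransporter, which rose by 0.67. TRAM2-AS1 lost its call in each of the 6 fits that left out 1 library (highest adjusted p = 0.138, without Vector replicate 3). Other falls listed here may also depend on 1 library, since 13 of all 34 falls kept their call in every such fit.

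By kind of name, 15 of 73 lincRNAs known only by a clone name fell and 3 rose. Of 52 numbered LINC genes 9 fell and 10 rose, and of 21 with an antisense or divergent name 3 fell and 0 rose in edgeR's test (0 also with DESeq2 and limma voom, and 2 at an unadjusted p under 0.05). Of 48 lincRNAs with 1 exon 13 fell and 2 rose, with a median log2 fold change of −0.29, and of 133 with several exons 21 fell and 12 rose, with a median of −0.05. Of all genes tested 11.6% fell and 11.7% rose. Some of these calls came from lincRNAs that passed the count limit only through their high group. Among numbered LINC genes these were the rises of LINC01322, LINC02331, LINC00543 and LINC01843 and the fall of LINC01224. Among clone names they were the rises of AC022784.1 and AC016205.1 and the falls of AL392172.1, AC005332.5 and AF117829.1. Shares of all genes by exon number or kind of name were not computed, so these counts describe the set only.

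Of a list of 46 names of noncoding RNA genes known from work on cancer, 41 were in the table. Of the listed names, 25 had the lincRNA biotype and 14 were among the 181. Of these 14, LINC00460 and MIR22HG were higher, FTX and PVT1 were lower, and the other 10 did not pass the test. These 4 of 14 are a share near the 23.4% of all genes tested that were called in either direction. PVT1 (chr8:127794533-128101253, plus strand) lies 53099 bases from MYC and is often amplified with it in tumours. It had 336, 367 and 375 counts in Vector and 230, 226 and 331 in OE-MMP28, without overlap (4.53 ± 0.480 and 2.94 ± 0.555 FPKM, log2 fold change −0.61 ± 0.18, edgeR adjusted p = 0.0213). MYC had a log2 fold change of 0.10 and did not pass the test. The call for PVT1 held in 2 of 6 fits that left out 1 library (highest adjusted p = 0.119, without OE-MMP28 replicate 2) and was lost when the local median of −0.19 was taken out (adjusted p = 0.137).

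UCA1, first found in urothelial carcinoma, had 80, 181 and 116 counts in Vector and 209, 221 and 179 in OE-MMP28, with overlap (log2 fold change 0.53 ± 0.26, edgeR adjusted p = 0.151). CRNDE, named for its expression in colorectal neoplasia, had 182, 211 and 185 counts against 149, 134 and 164 (log2 fold change −0.52 ± 0.20, edgeR adjusted p = 0.0590). Its groups were separated but the test was not passed. LINC01133 had a log2 fold change of 0.35 and BLACAT1 of −0.13. LINC-PINT, a target of p53, had 55, 41 and 55 counts against 74, 42 and 58 (log2 fold change 0.06 ± 0.29), too few for a small change to be seen.

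MicroRNA host genes give the primary transcripts from which microRNAs are cut, and the mature microRNAs themselves were not measured by these libraries. Mature microRNAs of the RefSeq table (GRCh38.p14) lay within 14 of the 181 lincRNAs, as 44 mature entries from 24 hairpins. Those of MIR22HG and FTX are shown because these hosts changed, with the seed (bases 2 to 8) in capitals, and AC016205.1, described above, also rose and holds the less known miR-924 and miR-5583. MIR22HG (ENSG00000186594, chr17:1711493-1717174, minus strand) rose and carries miR-22.
miR-22-3p: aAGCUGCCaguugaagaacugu
miR-22-5p: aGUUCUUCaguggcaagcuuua
MIR22HG had 166, 128 and 88 counts in Vector and 248, 240 and 307 in OE-MMP28, all above the Vector libraries. The level rose from 2.94 ± 0.843 to 5.48 ± 0.556 FPKM (log2 fold change 0.91 ± 0.22, edgeR adjusted p = 0.00485), with calls in all 14 alternative fits. WDR81, which starts 651 bases away on the other strand, did not pass the test (log2 fold change 0.06).

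FTX (ENSG00000230590, chrX:73946555-74293574, minus strand) fell and carries miR-421, miR-374b, miR-374a and miR-545.
miR-421: aUCAACAGacauuaauugggcgc
miR-374b-5p: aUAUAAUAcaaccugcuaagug
miR-545-3p: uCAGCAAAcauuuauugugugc
These 3 have different seeds. FTX was one of the more abundant lincRNAs, with 2319, 2845 and 3357 counts in Vector and 2350, 1705 and 1831 in OE-MMP28, where Vector replicate 1 and OE-MMP28 replicate 1 were nearly equal before scaling. It went from 6.90 ± 1.40 to 4.27 ± 0.819 FPKM (log2 fold change −0.68 ± 0.17, edgeR adjusted p = 0.00680), and 44.3% of its exon bases lie opposite other genes, JPX among them. JPX had 57, 88 and 78 counts against 96, 79 and 74 and a log2 fold change of 0.00 ± 0.26, and 78.0% of its own exon bases lie opposite exons of FTX. The call for FTX held in 4 of 6 fits that left out 1 library (highest adjusted p = 0.0570, without OE-MMP28 replicate 2).

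MIR222HG did not pass the test, with 283, 260 and 249 counts in Vector and 293, 306 and 401 in OE-MMP28 (log2 fold change 0.19, edgeR adjusted p = 0.480). It is the host of miR-221 and miR-222, which share their seed and so are read by overlapping sets of target sites.
miR-221-3p: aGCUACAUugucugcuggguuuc
miR-222-3p: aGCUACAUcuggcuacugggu
The let-7 seed was present in both AC048341.1, host of let-7i (log2 fold change −0.34, adjusted p = 0.216), and MIRLET7BHG, host of let-7a and let-7b (0.14, adjusted p = 0.715).
let-7i-5p: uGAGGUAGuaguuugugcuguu
let-7a-5p: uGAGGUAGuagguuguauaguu
let-7b-5p: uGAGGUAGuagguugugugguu
MIR210HG, host of the hypoxia-induced miR-210, had 99, 364 and 296 counts in Vector and 126, 205 and 221 in OE-MMP28, with a wide spread in Vector (log2 fold change −0.63 ± 0.33, edgeR adjusted p = 0.172). MIR194-2HG and MIR29B2CHG had log2 fold changes of −0.13 and −0.22.

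CYTOR and MIR4435-2HG, both on chromosome 2, share part of their sequence, and both carry miR-4435.
miR-4435: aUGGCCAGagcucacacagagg
Of the 50-base stretches of CYTOR 16% occur in MIR4435-2HG, and of those of MIR4435-2HG 21.6% occur in CYTOR, so reads from these stretches may have been divided between them or lost. CYTOR had 162, 123 and 155 counts in Vector and 133, 118 and 199 in OE-MMP28, and MIR4435-2HG had 311, 315 and 267 against 338, 295 and 303. Neither passed the test (log2 fold changes −0.11 and −0.08), although their local medians were −0.42 and −0.46. Of the 181 lincRNAs, 16 shared at least 10% of their 50-base stretches with other genes, and 2 of them, LINC00342 and LINC01116, were called.

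SnoRNA host genes carry snoRNAs, which guide the chemical modification of ribosomal RNA, in their introns. The spliced exons of many of them are bound by ribosomes and removed by nonsense-mediated decay. Of a list of 28 noncoding hosts 19 were tested, and 4 were called lower and 1 higher, with a median log2 fold change of −0.09. These 5 of 19 are a share near the 23.4% of all genes tested that were called in either direction. Among the 181 lincRNAs were 5 of them. EPB41L4A-AS1 (chr5:112160526-112164276, plus strand) fell, with 430, 363 and 425 counts in Vector and 284, 288 and 380 in OE-MMP28 and without overlap after scaling. Its level went from 8.36 ± 0.300 to 5.85 ± 0.782 FPKM (log2 fold change −0.50 ± 0.17, edgeR adjusted p = 0.0374). The call held in 2 of 6 fits that left out 1 library (highest adjusted p = 0.154, without OE-MMP28 replicate 2), and 49.6% of its exon bases lie opposite EPB41L4A.

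SNHG4, SNHG8, SNHG15 and SNHG19 did not pass the test. SNHG8 had 571, 410 and 524 counts in Vector and 495, 579 and 537 in OE-MMP28 (37.3 ± 3.95 and 36.0 ± 3.09 FPKM, log2 fold change −0.04 ± 0.16). SNHG15 had 748, 595 and 666 counts against 640, 737 and 785 (log2 fold change −0.04 ± 0.15), and SNHG4 had 957, 604 and 810 against 940, 758 and 1049 (log2 fold change 0.07 ± 0.17). All of these overlapped between the groups. SNHG19 had 180, 124 and 116 counts against 143, 218 and 225, with OE-MMP28 replicate 1 among the Vector values (log2 fold change 0.34 ± 0.22, edgeR adjusted p = 0.284).

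Hosts with other biotypes included the larger changes. ZFAS1, annotated as antisense, fell from 51.5 to 30.5 FPKM on average, with 1808, 1556 and 1666 counts against 1148, 975 and 1201 (log2 fold change −0.74, edgeR adjusted p = 0.00110). SNHG6 fell from 65.5 to 43.3 FPKM (log2 fold change −0.58) and GAS5 from 66.5 to 47.3 FPKM (log2 fold change −0.48), each without overlap. SNHG6 lay where the local median was −0.30 and lost its call in some alternative fits (highest adjusted p = 0.242). With local medians taken out 2 hosts were called lower. SNHG10 rose from 2.27 to 4.90 FPKM, with 72, 60 and 60 counts against 125, 158 and 180 (log2 fold change 1.12), and its call was lost when the local median was taken out (adjusted p = 0.140). Without OE-MMP28 replicate 2 the number called lower was 1 and without Vector replicate 3 it was 2, ZFAS1 being called in all.

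Many snoRNA hosts begin with a C followed by a run of pyrimidines, the mark of mRNAs whose translation follows growth signals. The 35 bases around the RefSeq start (GRCh38.p14) are shown for SNHG4, SNHG8, SNHG19, EPB41L4A-AS1 and ZFAS1, and not for SNHG15, with a C and at least 4 further C or T near the start in capitals. The run, searched on the transcribed strand within 5 bases of the start, was present in 10 of 17 hosts with a promoter in the table and in 21.1% of all promoters.
SNHG4 (chr5:139274091-139274125, plus strand): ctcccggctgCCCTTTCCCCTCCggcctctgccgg
SNHG8 (chr4:118278752-118278786, plus strand): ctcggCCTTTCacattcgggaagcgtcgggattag
SNHG19 (chr16:2155334-2155368, minus strand): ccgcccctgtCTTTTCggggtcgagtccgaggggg
EPB41L4A-AS1 (chr5:112160516-112160550, plus strand): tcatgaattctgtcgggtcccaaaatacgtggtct
ZFAS1 (chr20:49278632-49278666, plus strand): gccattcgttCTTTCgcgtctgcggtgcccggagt
Of the hosts shown, EPB41L4A-AS1 has no such run in this window and fell, ZFAS1 has it and fell, and the 3 SNHG genes have it and did not pass the test.

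**Figure D3:**
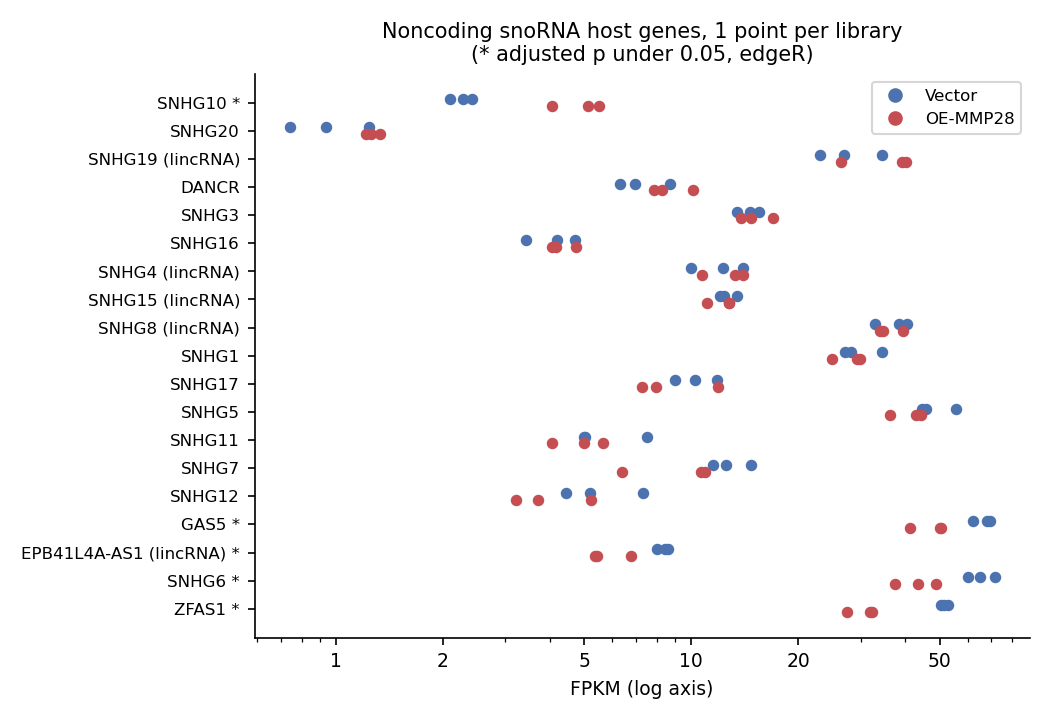
FPKM (log axis) of the 19 tested noncoding snoRNA host genes, ordered by log2 fold change, those of the 181 lincRNAs marked as lincRNA, with 1 point per library, Vector in blue and OE-MMP28 in red; a star marks an adjusted p under 0.05. SNHG10 stands alone as a called rise, while ZFAS1, SNHG6, EPB41L4A-AS1 and GAS5 lie at the other end with every OE-MMP28 library below every Vector library.

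The direction of change differed by chromosome. On chromosome 2 all 11 lincRNAs had a negative log2 fold change and 6 were called lower, with a median of −0.87. Of 832 tested protein-coding genes there, 309 fell and 18 rose, with a median of −0.40. On chromosome 10 all 6 lincRNAs were negative and 3 were called lower, beside 211 of 481 coding genes that fell and 12 that rose. On chromosome 8, 7 of 12 fell and 1, AC022784.1, rose, beside 131 of 421 coding genes that fell and 17 that rose. On chromosome 14 all 3 were positive and 2 were called higher, beside 235 of 406 coding genes that rose and 8 that fell. Some calls counted here belong to the 26 lincRNAs that passed the limit only through their high group. Among them are the rises of AC022784.1 and, on chromosome 14, LINC02331, so these tallies are descriptions. Chromosome 7 held the most lincRNAs, 23, of which 5 fell and 0 rose by edgeR, DESeq2 or limma voom (1 at an unadjusted p under 0.05). Of 615 tested coding genes there, 85 fell and 44 rose, with a median of −0.04.

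On chromosomes 3 and 11 coding genes mostly rose (192 against 29 that fell, and 207 against 34). The lincRNAs there did not all do so: on chromosome 3, 1 of 4 rose and 1 fell, and on chromosome 11, which holds MALAT1 and NEAT1, 0 of 12 rose by edgeR, DESeq2 or limma voom (1 at an unadjusted p under 0.05) and 1 fell. The rise on chromosome 3 was that of LINC01322, which also passed the limit only through its high group. The cause of these chromosome-wide differences was not tested.

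**Figure D4:**
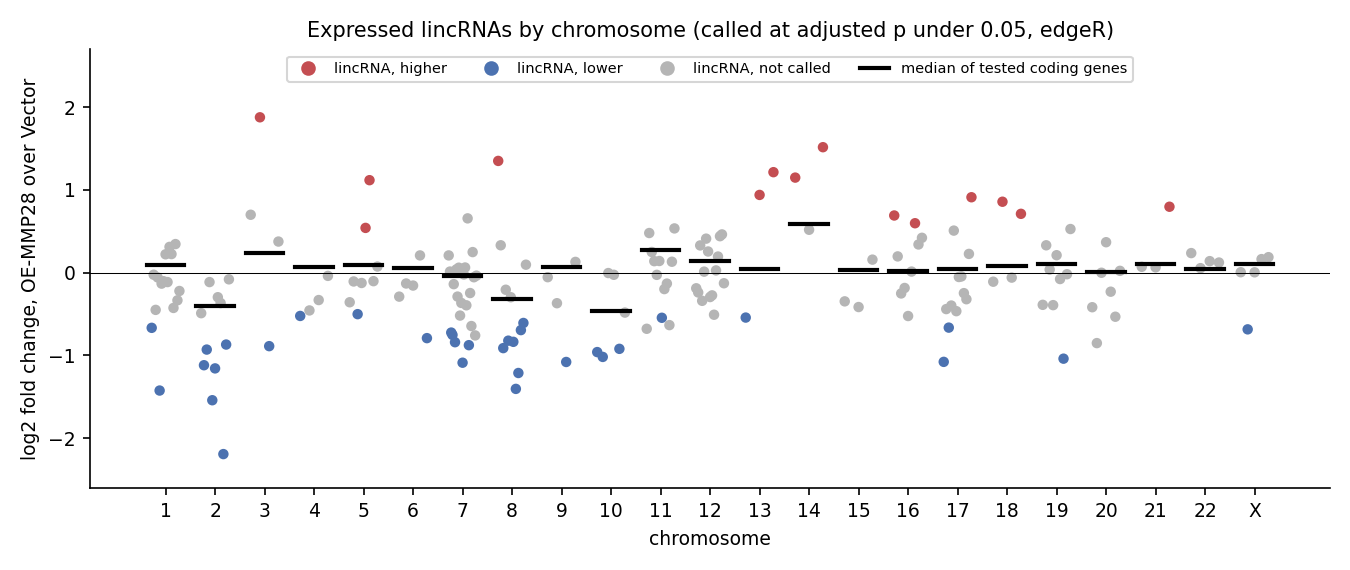
Log2 fold change (OE-MMP28 over Vector) of the 181 lincRNAs by chromosome, with 1 point per gene, red for called higher, blue for called lower and grey for not called, and a black bar for the median of the tested protein-coding genes of that chromosome. Points on chromosomes 2 and 10 all lie below 0, as do the coding medians of −0.40 and −0.46, and those on chromosome 14 lie above 0 with a coding median of 0.59.

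Each lincRNA was then set beside its coding neighbours. Across the 181 lincRNAs, which share their libraries and often their surroundings, Pearson's r was 0.37 (Spearman's rho 0.33) with the nearest tested coding gene and 0.44 (0.35) with the median of all coding genes within 10 Mb. For 38 lincRNAs whose start lay within 2 kb of a coding gene on the other strand, r with that partner was 0.35 and rho 0.41. The sign was the same for 105 of 181 with the nearest tested coding gene and for 93 of 181 with the local median. These correlations are across genes, which are not independent replicates, and carry no p. Of the 48 lincRNAs called, the nearest coding gene was called in the same direction for 16, in the other direction for 2 and in neither for 30. Of all genes tested, 23.4% were called in either direction.

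Of the 31 lincRNAs with a local median below −0.15, 16 fell and 2 rose. Of the 36 with a local median above 0.15, 4 fell and 4 rose, and of the 114 between, 14 fell and 8 rose. Over all regions 11.6% of all genes tested fell and 11.7% rose. Their shares by local median were not computed, so these counts are not a result about lincRNAs. When the local median was taken out of each gene, 31 of the 48 kept their call in the same direction, 22 lower and 9 higher. Among those kept were LINC01833 (−1.88 on the log2 scale), LINC00342 (−1.02) and LINC01322 (1.35), and among those lost were ITGB1-DT, AC012360.3, PVT1, LINC01588 and LINC02331.

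Divergent pairs had the same sign in 22 of 38 cases. Of 38 divergent lincRNAs 8 were called, a share near the 23.4% of all genes tested that were called in either direction. For these 8 the partner was called in the same direction for 4, in the other direction for 1 and not called for 3. The 4 were LINC01184 with SLC12A2, LINC01547 with FAM207A, AC012360.3 with C2orf49, and AF117829.1 with RIPK2, the kinase of the NOD receptors, which starts 20 bases away and had a log2 fold change of −0.63. AC022784.1 with PPP1R3B was the pair that moved apart. Both AC022784.1 and AF117829.1 passed the count limit only through their high group, so their pairs are descriptions. In 6 further pairs the coding gene was called and the lincRNA was not, as for RAB30-AS1 (0.53, not passing the test) beside RAB30 (−0.83, called lower).

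**Figure D5:**
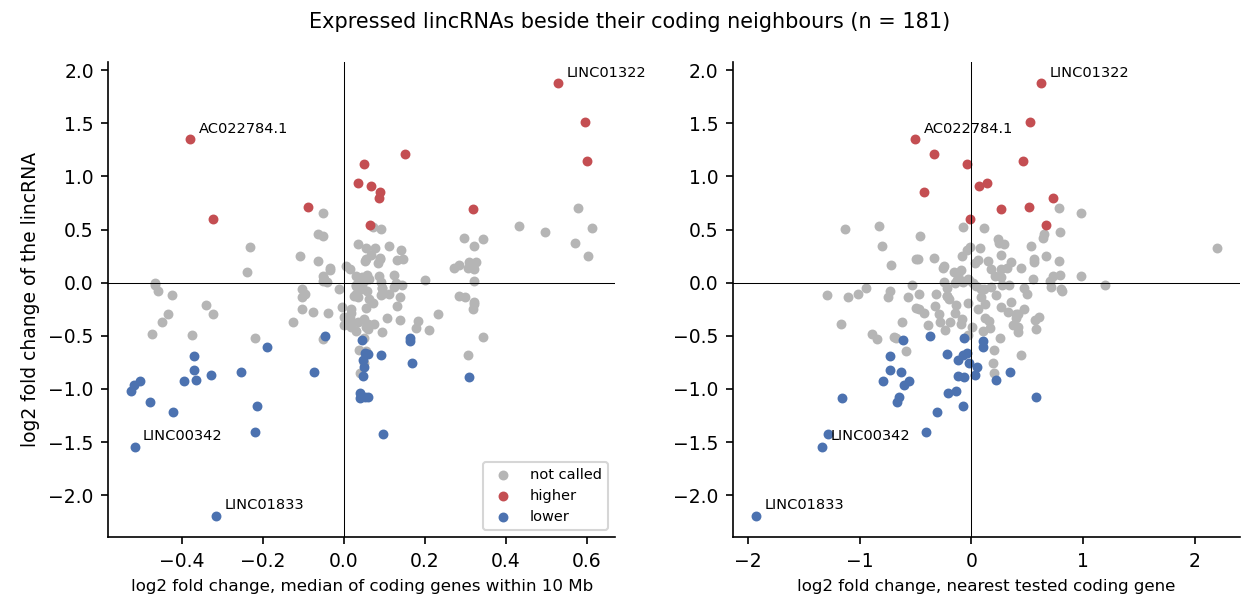
Log2 fold change of each of the 181 lincRNAs (vertical axis) against the median of the coding genes within 10 Mb (left) and against the nearest tested coding gene (right), red for called higher, blue for called lower and grey for not called. LINC01833, LINC00342 and LINC01322 lie on the side of their neighbours, and AC022784.1 (1.35) lies opposite to a local median of −0.38.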

How the data were processed

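The authors deposited 1 table of whole-number read counts per gene, neither normalized nor pooled, with FPKM per library as deposited by the authors, and the columns of their own comparison, which were not used. The submitters' processing notes name HISAT2 2.0.5 and featureCounts 1.5.0-p3, and settings and genome build are not given in the sources used here. The design followed the study's methods (limma on 2 groups, no covariate), with edgeR 4.0.16 (R 4.3.3) in its place because counts were present. Genes passed filterByExpr (minimum count 10, minimum total 15), libraries were scaled by TMM, and p-values were adjusted by Benjamini-Hochberg over all 15319 genes. FPKM and TMM-scaled CPM serve for levels. The members and lists were chosen with earlier results of these data known. Named were MALAT1, NEAT1, the snoRNA hosts, the 8 most abundant, the 12 largest rises and falls without overlap, listed cancer lincRNAs and further called ones, not every one singly. Local medians came from tested coding genes within 10 Mb, the gene itself left out. Annotation overlaps, shared stretches of 50 bases and motifs were computed from GENCODE 29 and RefSeq tables. Scripts were tested on simulated data. No line lacked a gene, and all columns of libraries were mapped. Libraries of a group did not agree within sampling noise, so all 6 were counted. A longer list of paraspeckle protein genes was tested, and its count of calls is not reported here.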

Additional observations from a re-analysis of the deposited data

How the results depend on the processing

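Median standard errors on the log2 scale were 0.28 for the 60 lincRNAs lowest by summed count and 0.19 for the 60 most abundant. Near the limit of 300 summed counts, CASC9 had a standard error of 0.43. Its Vector replicate 2 lay far above the other Vector libraries (128 counts against 30 and 48). The part of depth in that standard error was not tested. Calls of lincRNAs ranged from 8 to 13 higher and from 15 to 40 lower when 1 library was left out. With the local median as an offset 9 were higher and 26 lower, and among lincRNAs without exon overlap, an alternative chosen after seeing the data, 9 and 17. With a summed count of at least 100, 23 of 427 lincRNAs were higher and 56 lower. With at least 1000, 5 of 57 were higher and 15 lower, with a median log2 fold change of −0.33. These last sets hold more or fewer genes by construction. Of all genes tested in the main fit, 11.7% were higher and 11.6% lower. Upper-quartile scaling, DESeq2 1.42.0, limma voom 3.58.1, both other filters and leaving out mitochondrial genes gave 13 to 14 higher and 30 to 36 lower. Of snoRNA hosts 1 was higher in each fit without 1 library and 1 to 5 were lower, and with the offset 0 and 2 (1 higher at an unadjusted p under 0.05). Of all genes 985 to 1916 were higher and 1044 to 1949 lower without 1 library, and 1010 were higher with the offset. The cause of changes not set by construction was not tested.

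Signs turned for 10 named lincRNAs, none of them called. With the offset these were NEAT1 (−0.19), AP005233.2 (−0.17), CYTOR (0.31), MIR4435-2HG (0.38) and JPX (−0.087). JPX also turned with upper-quartile scaling (−0.046), DESeq2 (−0.0062), no filter (−0.0030), the filter of 1 CPM (−0.021) and without mitochondrial genes (−0.024). Without 1 library the log2 fold change ranged from −0.047 to 0.192 for SNHG4, −0.0819 to 0.0188 for SNHG15, −0.125 to 0.0245 for SNHG8, −0.176 to 0.227 for LINC-PINT, −0.340 to 0.0066 for CYTOR, −0.167 to 0.0155 for MIR4435-2HG, −0.364 to 0.0701 for BLACAT1 and −0.186 to 0.199 for JPX.

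The labels number the replicates 1 to 3 in both groups. With the replicate number as a block 15 lincRNAs were higher and 35 lower. Deviations of same-numbered libraries from their group means correlated at 0.017, 0.0080 and −0.088 across 15319 genes, and no library correlated best with its own number, so the numbers were not taken as pairs.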
